A study of Mus musculus with 32 samples.

Results

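The genes of plasminogen activation and fibrinolysis were followed in the brain 1 day after an experimental stroke. The group consisted of 8 genes, Plau, Plat, Plaur, Serpine2, Serpinb2, Thbd, F3 and Thbs1, which were found by their row names among the 33280 genes of the count tables. All 8 had enough counts to be tested in brain tissue and in sorted macrophages. WT mice of the strain C57BL/6JCrl had received the vehicle (hydroxypropyl-β-cyclodextrin, 4 CTL mice, named A2, A3, A4 and B1) or BLZ945 (4 mice, named C2, C3, C4 and D1) by oral gavage. BLZ945 inhibits CSF1R, a receptor that microglia and border macrophages need to survive. The dose was 200 mg per kg, over 7 days, after which the cells were left to repopulate the brain. At 8 weeks all mice, CTL mice included, had a stroke made by injection of α-thrombin into the middle cerebral artery, so no library comes from a brain without stroke. The ipsilateral (lesioned) and the contralateral hemisphere of every mouse gave 1 library of whole tissue and 1 library of sorted subdural CNS-associated macrophages (sdCAMs), a population of border macrophages gated as CD45+CD11b+CD206+ cells without Ly6C, Ly6G or CD11c from brain freed of choroid plexus.

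Plasmin is the protease that dissolves fibrin. It is cut from plasminogen by 2 activators, the tissue type (tPA, encoded by Plat) and the urokinase type (uPA, encoded by Plau), and the receptor uPAR (Plaur) holds uPA at the cell surface. Serpins oppose them. Protease nexin-1 (Serpine2) blocks thrombin and both activators, and plasminogen activator inhibitor-2 (Serpinb2) blocks uPA and tPA. On the coagulation side, tissue factor (F3) starts the cascade that forms thrombin, and thrombomodulin (Thbd) turns bound thrombin into an activator of the anticoagulant protein C. Thrombospondin-1 (Thbs1) is a matrix glycoprotein of platelets and activated cells that binds CD36 and activates latent TGF-β. In the brain, astrocytes are a known source of tissue factor and of protease nexin-1, and endothelial cells of tPA and thrombomodulin.

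Total counts per library lay between 9288717 and 12781505 in the 16 tissue libraries and between 7397393 and 11081409 in the 14 sdCAM libraries used. Levels are given in CPM, the counts of a gene scaled to the total of its library after TMM normalization, and are not set between genes, since they are not per length. A count of 3 in a library, taken as the floor, was worth 0.234 to 0.321 CPM in tissue and 0.253 to 0.389 CPM in sdCAMs, which covers counting error only. The ipsilateral sdCAM libraries of A3 and C2 are labelled as degraded RNA. They held 54055 and 55155 counts and were left out. For the tissue of mouse A3, the sample labels and the column names of the count table give opposite hemispheres, and library 19 was taken as ipsilateral, as in the labels. Calls and fold changes of the members that rose in tissue are also given with these libraries exchanged. A gene was called at an adjusted p under 0.05 (edgeR's quasi-likelihood test, Benjamini-Hochberg over all genes tested) and a log2 fold change beyond 0.59.

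Start-site regions from RefSeq (GRCm38.p6, 250 bases before to 50 bases after the start) could be matched for Plaur, Serpine2, Serpinb2 and F3, 4 of the 8 genes. Plaur, called higher in tissue, F3, called lower in sdCAMs, and Serpine2, called in neither, are shown side by side. Capitals mark matches to the AP-1 motif TGANTCA, the site of Fos and Jun, read on both strands.

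Plaur, chr7:24462233-24462532, plus strand: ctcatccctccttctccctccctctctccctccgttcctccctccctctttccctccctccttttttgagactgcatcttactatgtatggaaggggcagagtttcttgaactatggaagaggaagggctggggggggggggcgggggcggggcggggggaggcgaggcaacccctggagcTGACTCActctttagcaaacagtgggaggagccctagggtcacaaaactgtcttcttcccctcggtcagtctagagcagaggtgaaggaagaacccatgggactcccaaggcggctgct
F3, chr3:121723287-121723586, plus strand: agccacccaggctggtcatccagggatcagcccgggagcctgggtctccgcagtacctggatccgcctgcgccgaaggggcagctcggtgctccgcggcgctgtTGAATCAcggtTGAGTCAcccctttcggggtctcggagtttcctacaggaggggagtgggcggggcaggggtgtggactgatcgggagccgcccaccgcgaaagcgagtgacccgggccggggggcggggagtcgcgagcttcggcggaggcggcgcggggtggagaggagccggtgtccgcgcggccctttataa
Serpine2, chr1:79858616-79858915, minus strand: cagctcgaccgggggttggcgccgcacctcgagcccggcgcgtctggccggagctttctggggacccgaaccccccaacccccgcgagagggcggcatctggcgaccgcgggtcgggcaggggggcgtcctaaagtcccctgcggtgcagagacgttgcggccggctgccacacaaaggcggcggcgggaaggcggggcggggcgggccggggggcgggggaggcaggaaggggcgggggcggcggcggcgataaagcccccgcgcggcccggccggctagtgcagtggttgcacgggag

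The Plaur window held 1 AP-1 match starting 69 bases before the start site. In the F3 window 2 matches started 146 and 135 bases before it, with 4 bases between them. Serpinb2 has 2 overlapping windows, and both held the same match, TGAATCA. The Serpine2 window held none. Of 32851 windows of 300 bases in the table, 7.81% held the motif. An Egr motif, GCGNGGGCG, was found in the Plaur and Serpine2 windows and in 5.55% of all windows. The 2 motifs did not overlap each other in any of the 3 windows shown. The CRE motif TGACGTCA, the hypoxia motif ACGTG and the Smad palindrome GTCTAGAC had no match in the windows of the 4 genes, against 1.79%, 19.6% and 0.213% of all windows. TATAAA was found in the windows of Serpinb2 and F3 and in 13.6% of all. In the Serpinb2 windows it started 29 and 116 bases before the start site. In F3 it lay on the opposite strand, as TTTATA, starting 43 bases after the start site. These matches describe the letters only.

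In brain tissue, the transcripts of uPA, its receptor, thrombomodulin and thrombospondin-1 were higher in the lesioned hemisphere, while those of tPA, protease nexin-1 and tissue factor were close to level. In BLZ945 mice 4 of the 8 genes were called higher and none lower, against 1.12% of all 18968 genes called higher and 0.0369% called lower. Averaged over both treatments the same 4 were called, against 1.93% higher and 0.0738% lower. In CTL mice alone none of the 8 was called, against 0.443% of genes higher and 0% lower. There 5 members had an unadjusted p under 0.05, against 1182 of the 18968 genes. DESeq2 called 1 member, Plaur, against 139 genes in all. With the mouse as a block, Plaur (log2 fold change 1.956, adjusted p = 0.00754) and Thbs1 (2.23, adjusted p = 0.000116) were called in CTL mice too. All 4 calls were lost when the A3 tissue libraries were exchanged, with adjusted p from 0.0732 to 0.142 in BLZ945 mice and from 0.115 to 0.149 in the average. In bulk tissue, fewer cells of a type and less RNA per cell cannot be told apart.

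**Figure D1:**
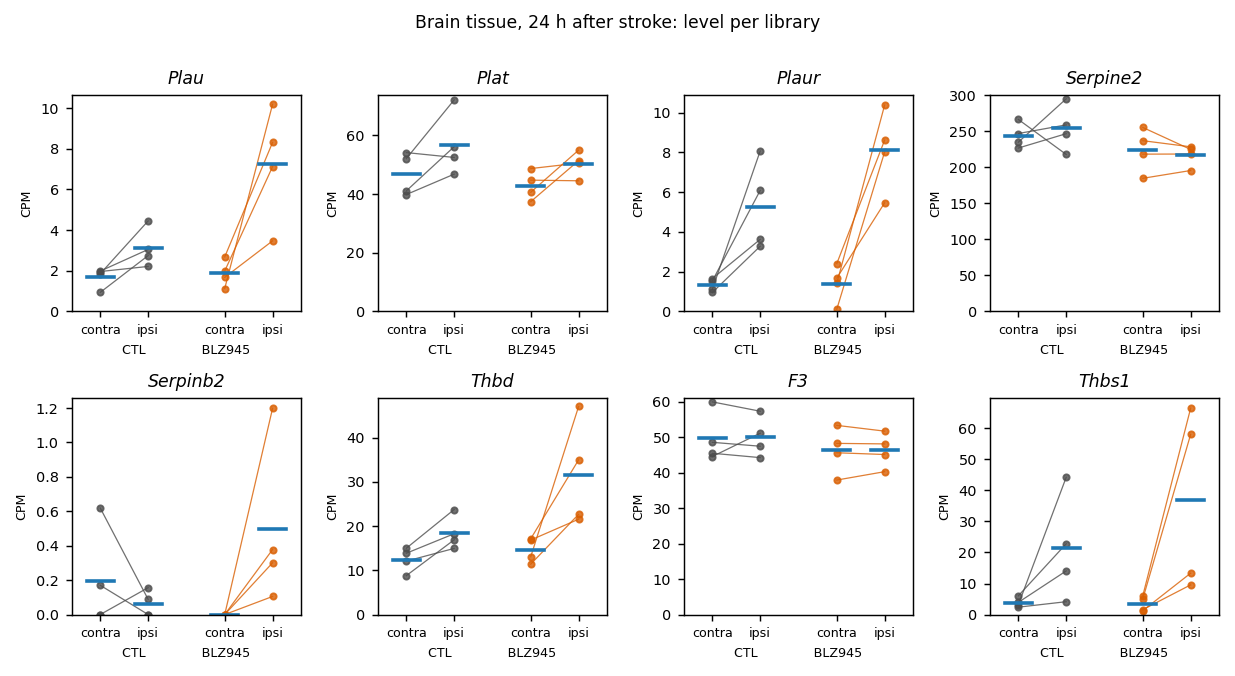
Level of each gene in CPM (y axis, from 0) in the 16 tissue libraries, by treatment and hemisphere (x axis), with lines joining the hemispheres of a mouse and a blue bar at the mean of each group of 4. Plaur rises on the ipsilateral side in all 8 mice, while Serpine2 and F3 stay level.

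Plaur, the uPA receptor, had the smallest adjusted p of the members in CTL tissue and in the average of both treatments. Contralateral libraries of CTL mice had 0.951 CPM (A2), 1.53 (A3), 1.65 (A4) and 1.11 (B1), and the ipsilateral ones 3.28, 6.09, 3.63 and 8.07 CPM in the same order. In BLZ945 mice the contralateral levels were 0.107 (C2), 2.40 (C3), 1.67 (C4) and 1.40 CPM (D1) and the ipsilateral ones 8.03, 8.62, 5.47 and 10.4 CPM. Every ipsilateral library was therefore above every contralateral one, in both treatments, and the contralateral value of C2 rested on a single count. The log2 fold change was 2.01 ± 0.45 (SE) in CTL (adjusted p = 0.069), 2.52 ± 0.45 in BLZ945 mice (adjusted p = 0.00704) and 2.26 ± 0.32 in the average, a 4.81-fold difference (adjusted p = 0.000423, edgeR). Exchanging the A3 libraries moved the CTL value to 0.75 and the average to 1.63.

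Plau, which encodes uPA itself, was at low levels. Its CTL contralateral libraries had 1.98 CPM (A2), 0.935 (A3), 1.96 (A4) and 1.85 (B1), against 3.05, 2.74, 2.21 and 4.45 CPM ipsilaterally. The BLZ945 libraries had 2.68 (C2), 1.99 (C3), 1.67 (C4) and 1.12 CPM (D1) contralaterally and 8.31, 7.12, 3.47 and 10.2 CPM ipsilaterally. The hemispheres did not overlap within either treatment. The rise was 1.85-fold in CTL mice (log2 fold change 0.89 ± 0.35, adjusted p = 0.645, not called) and 3.91-fold in BLZ945 mice (1.97 ± 0.35, adjusted p = 0.00619, edgeR). With the A3 libraries exchanged, the log2 fold change was 0.32 in CTL mice and 1.14 in the average. Counts behind these values were between 11 and 102 per library.

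Plat, the other activator, differed little. Its level lay between 37.4 and 54.1 CPM in the 8 contralateral libraries and between 44.5 and 72.1 CPM in the 8 ipsilateral ones, and the hemispheres overlapped in both treatments. It was higher on the ipsilateral side in 3 of 4 mice of each treatment, with a log2 fold change of 0.26 ± 0.09 in the average (adjusted p = 0.185, edgeR), below the fold change threshold.

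Among the inhibitors, Serpine2 had 185 to 295 CPM in the 16 libraries and an average log2 fold change of 0.01 ± 0.07 (adjusted p = 0.985, edgeR). Serpinb2 was near the floor. In BLZ945 mice it had 4, 3, 1 and 12 counts in the ipsilateral libraries of C2, C3, C4 and D1 and 0 in all 4 contralateral ones. CTL mice had 2, 0, 1 and 0 counts ipsilaterally and 0, 2, 6 and 0 contralaterally. D1 held 12 of the counts, the other 3 libraries held 1 to 4, near the floor of 3, and the gene was not called (adjusted p = 0.162, edgeR). In GENCODE vM21 (GRCm38) its exons overlap those of Serpinb10 on the same strand, so its counts are uncertain.

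Of the coagulation genes, Thbd rose and F3 did not. Thbd had 14.98 CPM (A2), 13.9 (A3), 12.1 (A4) and 8.79 (B1) contralaterally in CTL mice and 23.7, 18.3, 14.9 and 16.9 CPM ipsilaterally. The values in BLZ945 mice were 13.1 (C2), 11.4 (C3), 16.8 (C4) and 17.1 CPM (D1) contralaterally and 47.0, 22.7, 21.5 and 35.0 CPM ipsilaterally. Each mouse was higher on the lesioned side, without overlap of the hemispheres in BLZ945 mice and with one in CTL mice, where the ipsilateral library of A4 fell just below the contralateral one of A2. The log2 fold change was 0.57 ± 0.24 in CTL (adjusted p = 0.692), 1.11 ± 0.24 in BLZ945 mice (adjusted p = 0.0239) and 0.84 ± 0.17 in the average (adjusted p = 0.00846, edgeR). With the A3 libraries exchanged it was 0.36 in CTL mice and 0.73 in the average. F3 lay between 37.9 and 60.0 CPM in all 16 libraries, with an average log2 fold change of 0.01 ± 0.08 (adjusted p = 0.993, edgeR).

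Thbs1 had the largest fold change of the 7 members with one, in either treatment and in the average. Its CTL contralateral libraries had 2.38 CPM (A2), 6.03 (A3), 3.92 (A4) and 3.14 (B1), against 4.14, 22.8, 14.1 and 44.2 CPM ipsilaterally. In BLZ945 mice it had 5.04 (C2), 1.25 (C3), 1.58 (C4) and 6.09 CPM (D1) contralaterally and 58.1, 13.3, 9.57 and 66.5 CPM ipsilaterally. All 8 mice were higher on the lesioned side. Mouse A2 rose least, and B1, C2 and D1 reached the highest levels. The difference was 5.50-fold in CTL (log2 fold change 2.46 ± 0.71, adjusted p = 0.279), 10.5-fold in BLZ945 mice (3.40 ± 0.73, adjusted p = 0.0248) and 7.61-fold in the average (2.93 ± 0.51, adjusted p = 0.00261, edgeR). With the A3 libraries exchanged the log2 fold change was 1.08 in CTL mice and 2.24 in the average, and without B1 it was 1.73 in CTL mice. Its exons overlap those of Gm29233 on the opposite strand (GENCODE vM21), and the sources used here do not say whether reads were counted by strand.

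The calls in BLZ945 mice depended on mice C2 and D1. Without D1 none of the 4 was called (adjusted p from 0.0753 to 0.107, edgeR), with log2 fold changes of 1.58 for Plau, 2.39 for Plaur, 1.15 for Thbd and 3.38 for Thbs1, and without C2 Thbd (log2 fold change 0.80, adjusted p = 0.259) and Thbs1 (3.32, adjusted p = 0.16) were not. In the average of both treatments the count stayed at 4 whichever mouse was left out.

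Markers of other cells moved in the same tissue. Among 3 neutrophil markers with enough counts 2 were called higher on the lesioned side, with a summed level of 0.547 to 4.53 CPM in CTL ipsilateral and 0.802 to 3.78 CPM in BLZ945 ipsilateral libraries, against 0 to 1.12 CPM in all contralateral ones. Ly6g, which defines neutrophils, was at 0 in the CTL libraries and in the contralateral BLZ945 libraries. One of 4 monocyte markers was called higher, 1 of 5 endothelial and 1 of 4 astrocyte markers were, and 1 of 5 microglia markers was called lower. The summed endothelial markers spanned 188 to 247 CPM contralaterally and 192 to 287 CPM ipsilaterally. No choroid plexus marker was called, but their sum varied widely, from 1.05 CPM (C3 contralateral) to 4050 CPM (C2 ipsilateral). The part of these cells in the changes of Plau, Plaur, Thbd and Thbs1 was not tested.

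Whether the earlier depletion changed the levels was asked within each hemisphere and as a difference of the responses. None of the 8 genes was called in tissue in any of these 3 comparisons, and 0% of all genes were (edgeR), although 386 genes in the difference of responses, 858 in the ipsilateral and 616 in the contralateral comparison had an unadjusted p under 0.05. Over all genes DESeq2 called 0, 1 and 0 in the same order. Among the members, 2, 4 and 1 had an unadjusted p under 0.05 in these comparisons, and DESeq2 called 0. Ipsilateral Plau was 2.33-fold higher in BLZ945 than in CTL mice (log2 fold change 1.22 ± 0.33, unadjusted p = 0.0017, adjusted p = 0.958). The groups overlapped through C4, whose 3.47 CPM lay below the 4.45 CPM of B1. Ipsilateral Thbd was 1.71-fold higher (0.77 ± 0.23, unadjusted p = 0.00402, adjusted p = 0.958, edgeR). Neither passed the adjustment over all genes.

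In sdCAMs other genes of the group stood out. The tPA transcript fell on the lesioned side, tissue factor transcript fell when both treatments were averaged, and the receptor and thrombospondin-1 genes that rose in tissue were not called. In each treatment Plat was the one member called, lower in both, against 0.426% of 18297 genes called higher and 2.36% lower in CTL mice and 1.2% higher and 4.41% lower in BLZ945 mice. In the average Plat and F3 were called lower, 2 of 8, against 3.91% higher and 11.1% lower. More genes were called lower than higher among all genes, and the median log2 fold change over all genes was -0.16 in the average.

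**Figure D2:**
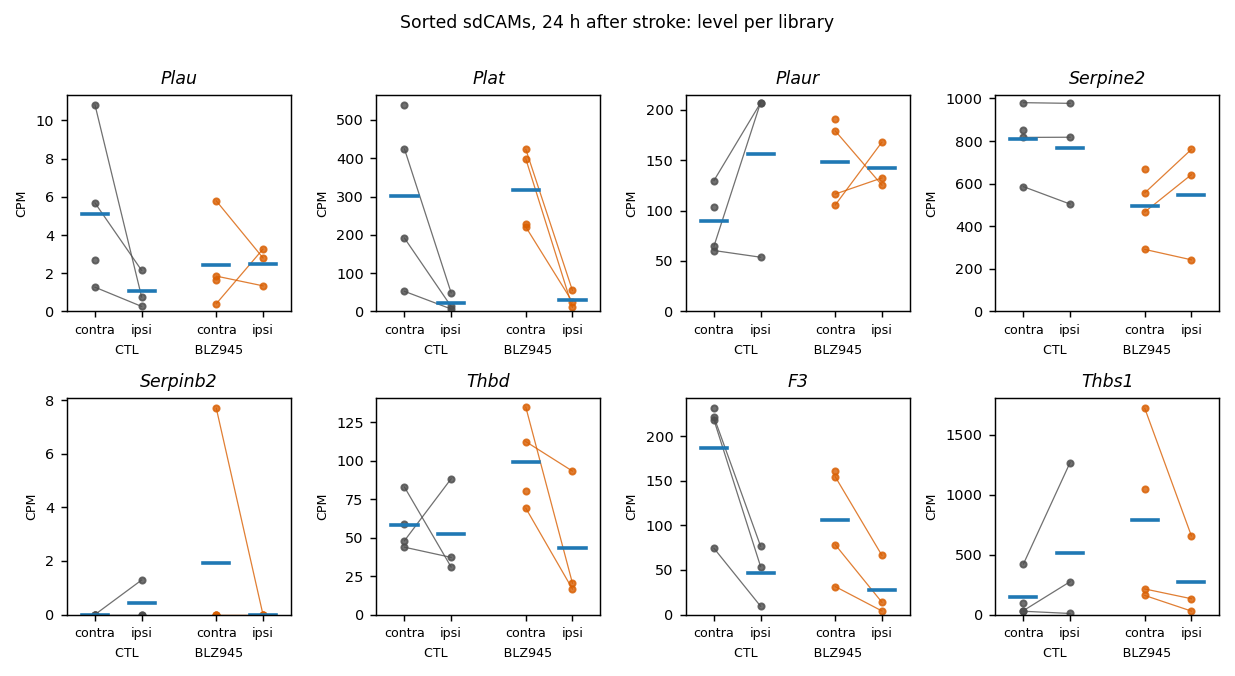
Level of each gene in CPM (y axis, from 0) in the 14 sdCAM libraries by treatment and hemisphere (x axis), with lines joining the hemispheres of a mouse and a blue bar at the group mean; A3 and C2 have a contralateral library alone. Plat and F3 fall on the ipsilateral side in all 6 mice with both hemispheres, and Thbs1 spreads from 8.95 to 1720 CPM.

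Contralateral sdCAM libraries of CTL mice had 52.4 CPM of Plat (A2), 539 (A3), 424 (A4) and 191 (B1), and the ipsilateral ones had 6.27 (A2), 48.6 (A4) and 12.98 (B1). In BLZ945 mice the contralateral levels were 227 (C2), 398 (C3), 424 (C4) and 221 CPM (D1), against 10.4 (C3), 54.6 (C4) and 24.7 CPM (D1) ipsilaterally. Each of the 6 mice with both libraries was lower on the lesioned side. The single overlap was between C4 ipsilateral and A2 contralateral, which belong to different treatments. Plat was 13.4-fold lower in CTL (log2 fold change -3.74 ± 0.84, adjusted p = 0.0281), 10.6-fold lower in BLZ945 mice (-3.41 ± 0.82, adjusted p = 0.0254) and 11.9-fold lower in the average (-3.57 ± 0.59, adjusted p = 0.000976, edgeR). Within a treatment the call was lost without A3 (adjusted p = 0.0774) or B1 (0.112) in CTL mice and without C3 (0.143), C4 (0.0739) or D1 (0.0936) in BLZ945 mice. The average remained called without any one mouse, with log2 fold changes from -4.08 to -3.31.

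F3, the tissue factor gene, moved in the same direction as Plat. It had 218 CPM (A2), 232 (A3), 222 (A4) and 74.4 (B1) in CTL contralateral libraries and 53.8 (A2), 76.7 (A4) and 9.33 (B1) in the ipsilateral ones. The BLZ945 values were 161 (C2), 78.3 (C3), 155 (C4) and 31.4 CPM (D1) contralaterally and 13.8 (C3), 66.4 (C4) and 4.02 CPM (D1) ipsilaterally. B1 and D1 had the lowest contralateral and the lowest ipsilateral level of their treatment, so the groups overlapped while each mouse fell. The average log2 fold change was -1.963 ± 0.59, a 3.90-fold lower level (adjusted p = 0.0356, edgeR), and it was not called within CTL (-2.003 ± 0.84, adjusted p = 0.22) or BLZ945 mice (-1.92 ± 0.84, adjusted p = 0.196). With the mouse as a block it was called in both, at -2.16 (adjusted p = 0.0142) and -2.195 (adjusted p = 0.008). Without the block, the call in the average was lost when A2, A3, A4, B1, C2 or C3 was left out, with adjusted p from 0.052 to 0.0957.

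Markers of several, not all, cell types outside the sort gate moved in the same direction as Plat and F3. All 5 endothelial markers were called lower on the lesioned side, with a median log2 fold change of -4.26. Their summed level was 838 to 2670 CPM in CTL contralateral libraries and 65.6 to 191 CPM in the ipsilateral ones, and 1360 to 2730 against 40.4 to 79.2 CPM in BLZ945 mice. All 4 astrocyte markers were called lower too (median -2.19), from 318 to 1050 CPM down to 43.2 to 369 CPM in CTL mice and from 118 to 803 down to 23.8 to 149 CPM in BLZ945 mice. So were 4 of 4 mural, 3 of 3 oligodendrocyte and 3 of 4 choroid plexus markers, while none of 5 neutrophil, 4 monocyte or 4 fibroblast markers was called. Although the plexus had been removed, its summed markers had 24.5 to 8880 CPM contralaterally and 0.502 to 352 CPM ipsilaterally in CTL mice. In BLZ945 mice they had 1380 to 36900 and 201 to 1490 CPM. In the contralateral libraries of A4, C3, C4 and D1 this sum exceeded that of the border macrophage markers. The 7 border macrophage markers were detected in every group and all called higher (median 1.12), from 1730 to 5720 CPM contralaterally to 4530 to 7770 CPM ipsilaterally in CTL mice and from 1540 to 3930 to 5040 to 9180 CPM in BLZ945 mice. All 5 microglia markers were present as well, with summed levels from 5230 to 25300 CPM over the 4 groups, and 2 were called higher. In every sdCAM library used, the microglia sum exceeded that of the border macrophage markers. It was 12500 against 1730 CPM in the contralateral library of A3 and 9730 against 9180 CPM in the ipsilateral one of D1. These sums hold different genes and do not give cell shares. The part of these cells in the fall of Plat and F3, and in the sdCAM levels of the other members, was not tested.

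**Figure D3:**
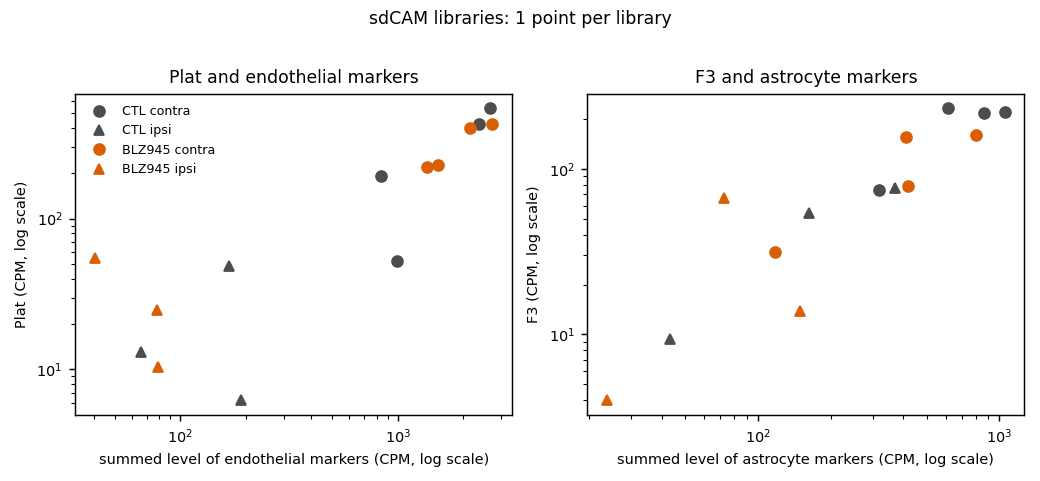
Plat against the summed endothelial markers (left) and F3 against the summed astrocyte markers (right), both in CPM on log axes, with 1 point for each of the 14 sdCAM libraries, coloured by treatment and shaped by hemisphere. In the left panel the ipsilateral libraries lie at or below 191 CPM of endothelial markers and 54.6 CPM of Plat.

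Across the contralateral libraries Plat was 191 CPM at 838 CPM of endothelial markers (B1), 52.4 at 995 (A2), 221 at 1360 (D1), 227 at 1540 (C2), 398 at 2160 (C3), 424 at 2360 (A4), 539 at 2670 (A3) and 424 CPM at 2730 CPM (C4). Libraries with a higher sum had a higher Plat level, except A2 and C4. Among the ipsilateral libraries the highest Plat, 54.6 CPM, was in C4, which had the lowest sum, 40.4 CPM. For F3, D1 had the lowest level and the lowest sum of astrocyte markers, 118 CPM, among contralateral libraries. Scaling the sdCAM libraries to the summed border macrophage markers, an alternative added after the data were seen, moved the median of all genes to -1.38 on the log2 scale, since those markers rose themselves. On that scale the average log2 fold change was -5.14 for Plat and -3.31 for F3.

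Serpine2, the inhibitor, was level in sdCAMs under TMM scaling. It lay between 586 and 980 CPM in CTL contralateral libraries and between 504 and 977 CPM ipsilaterally. In BLZ945 mice it had 291 to 668 CPM and 242 to 761 CPM, and its average log2 fold change was 0.03 ± 0.25 (adjusted p = 0.992, edgeR). Serpinb2 had counts in only 2 of the 14 libraries, 12 in the ipsilateral library of B1 and 75 in the contralateral library of D1. It had 0 in the other 12, each of which allows up to 3 counts, and no fold change is given.

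Plaur in sdCAMs spanned 60.3 to 130 CPM contralaterally and 53.7 to 207 CPM ipsilaterally in CTL mice. In BLZ945 mice it spanned 106 to 191 and 125 to 168 CPM. Of the 6 mice 4 were higher on the lesioned side, 2 in each treatment, and the average log2 fold change was 0.37 ± 0.28 (adjusted p = 0.404, edgeR). Plau was at most 10.8 CPM (A2 contralateral) and had as few as 2 counts in a library, with an average log2 fold change of -1.12 ± 0.80 (adjusted p = 0.371, edgeR). It was lower on the lesioned side in all 3 CTL mice and in 2 of 3 BLZ945 mice.

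Thbd in sdCAMs had 43.7 to 82.8 CPM contralaterally and 30.9 to 88.2 CPM ipsilaterally in CTL mice. In BLZ945 mice it had 80.0 (C2), 135 (C3), 69.1 (C4) and 112 CPM (D1) against 20.4 (C3), 16.6 (C4) and 93.2 CPM (D1). B1 and D1 had the highest ipsilateral levels, against 48.0 CPM contralaterally in B1 and 112 CPM in D1. The average log2 fold change was -0.68 ± 0.38 (adjusted p = 0.235, edgeR). Without D1 it was -1.26 and called (adjusted p = 0.0166).

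Thbs1 varied more between mice than between hemispheres. In CTL sdCAMs it had 32.6 (A2), 92.5 (A3), 27.3 (A4) and 421 CPM (B1) contralaterally and 274 (A2), 8.95 (A4) and 1268 CPM (B1) ipsilaterally. In BLZ945 mice the values were 1046 (C2), 159 (C3), 213 (C4) and 1720 CPM (D1) contralaterally and 28.9 (C3), 132 (C4) and 656 CPM (D1) ipsilaterally. B1 was the highest CTL mouse and D1 the highest BLZ945 mouse on both sides. The log2 fold change was 1.85 ± 1.28 in CTL and -1.53 ± 1.33 in BLZ945 mice, neither called (adjusted p = 0.447 and 0.534), and the difference of the responses was -3.38 ± 1.86 (unadjusted p = 0.0886, adjusted p = 1, edgeR).

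**Figure D4:**
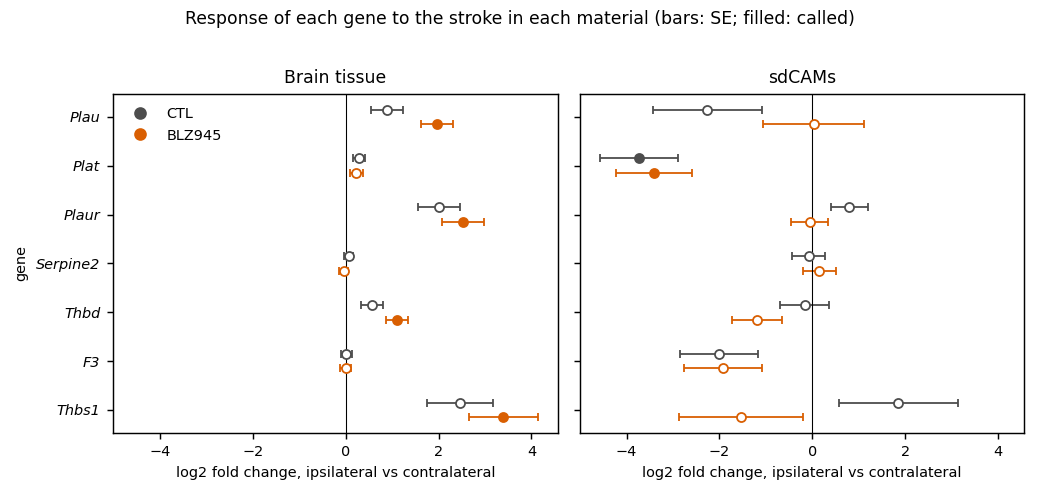
Log2 fold change of ipsilateral over contralateral (x axis) for 7 genes (y axis) in tissue (left) and sdCAMs (right), with CTL in grey and BLZ945 in orange, bars of 1 SE and filled points for called genes. Serpinb2 is left out because groups without counts give no fold change. Plau, Plaur, Thbd and Thbs1 lie right of 0 in tissue, and Plat lies left of -3 in sdCAMs.

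BLZ945 and CTL sdCAMs did not differ in any of the 8 genes by the calling rule, with 0% of all genes called in the 2 hemispheres and in the difference of responses (edgeR) and 912, 1034 and 1133 genes at an unadjusted p under 0.05 in the difference, the ipsilateral and the contralateral comparison. Over all genes DESeq2 called 48, 123 and 39 in the same order. Among the members 1, 0 and 1 had an unadjusted p under 0.05, and DESeq2 called 0. In contralateral sdCAMs, Thbs1 was 5.47-fold higher in BLZ945 mice (log2 fold change 2.45 ± 1.25, adjusted p = 0.759), Plaur 1.65-fold higher (0.72 ± 0.37, adjusted p = 0.759) and Serpine2 1.63-fold lower (-0.71 ± 0.33, adjusted p = 0.759, edgeR). None of the 3 passed the adjustment over all genes. Marker sums also differed between contralateral BLZ945 and CTL libraries, with medians of 1870 against 262 CPM for neutrophil and 565 against 130 CPM for monocyte markers. The medians were 12500 against 161 CPM for choroid plexus, 8280 against 13400 for microglia and 2410 against 4160 CPM for border macrophage markers. The part of these cells in the 3 fold changes was not tested.

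Each gene was then set against itself in the 2 materials, in a fit over 30 libraries. The library preparations of the 2 materials may differ, so levels are relative to the rest of each library. In the contralateral hemisphere 6 of 8 genes were called higher in sdCAMs than in tissue, against 30.3% of 19389 genes higher and 37.1% lower. Thbs1 was 84.4-fold higher (log2 fold change 6.40 ± 0.95) and Plaur 77.7-fold (6.28 ± 0.37), and without B1 the value of Thbs1 was 5.60. Plat (2.67 ± 0.39), Thbd (2.37 ± 0.30), F3 (1.43 ± 0.40) and Serpine2 (1.32 ± 0.19) followed, and Plau (0.87 ± 0.47, adjusted p = 0.0976, edgeR) was not called. In the ipsilateral hemisphere 4 were called higher and 2 lower, against 25.3% and 44.5%. Plaur (4.32 ± 0.34), Thbs1 (3.57 ± 0.85), Serpine2 (1.28 ± 0.20) and Thbd (0.80 ± 0.31) were higher in sdCAMs, and both activators, Plau (-1.72 ± 0.53) and Plat (-1.22 ± 0.41), were lower. With the mouse as a block Thbd was not called here (0.69, adjusted p = 0.0665, edgeR), nor without B1 (0.47, adjusted p = 0.212) or D1 (0.26, adjusted p = 0.417). Without B1 the call of Plat was lost (-1.02, adjusted p = 0.0572), and without C4 F3 was called lower (-1.42, adjusted p = 0.00604). Without A4, contralateral Plau was called higher in sdCAMs (1.07, adjusted p = 0.0463). Summed endothelial markers were higher in contralateral sdCAM libraries too (838 to 2730 CPM) than in contralateral tissue (188 to 247 CPM). Summed astrocyte markers were lower there, at 118 to 1050 CPM in sdCAMs against 4300 to 5350 CPM in tissue. The part of other cells in these levels was not tested.

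The log2 fold change of ipsilateral over contralateral differed between the materials for 5 of 8 genes. It was lower in sdCAMs than in tissue for all 5, against 2.35% of genes higher and 17% lower. The difference was -3.89 ± 0.57 on the log2 scale for Plat (adjusted p = 1.47e-05), -2.59 ± 0.71 for Plau (0.00923), -2.03 ± 0.60 for F3 (0.0161), -1.956 ± 0.46 for Plaur (0.0029) and -1.57 ± 0.43 for Thbd (0.0102, edgeR). Thbs1 (-2.83 ± 1.16, adjusted p = 0.0872) was not called, but was with the mouse as a block (-2.47, adjusted p = 0.031). For Serpine2 the difference was -0.04 ± 0.27 and not called. With the A3 tissue libraries exchanged, the difference of Plaur was -1.32 and not called (adjusted p = 0.107). The calls of F3 without C3 (adjusted p = 0.056), of Plau without D1 (0.0543) and of Thbd without A4 (0.0538, edgeR) were lost as well, with differences of -1.92, -2.26 and -1.37. The same libraries enter this difference and the comparisons above. In sdCAMs all 5 endothelial and all 4 astrocyte markers were called lower on the lesioned side. The part of such cells in these differences was not tested.

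The other genes of the plasmin system were taken as a list of 29. In tissue, 5 of 28 tested were called higher in the average of both treatments and none lower, against 1.93% and 0.0738% of all genes. Among them were Serpinf2, the α2-antiplasmin gene (log2 fold change 2.65 ± 0.46, SE), A2m, α2-macroglobulin (1.54 ± 0.35), Anxa2, a plasminogen receptor subunit (1.19 ± 0.22), and Itgb2, an integrin chain of leukocytes (0.86 ± 0.17). The list's median log2 fold change was 0.14, that of all genes -0.01. Plg, which encodes plasminogen, had at most 3 counts in a tissue library and at most 1 in an sdCAM library, at or under the floor.

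Of 29 genes tested on the list of coagulation and its control, 3 were called higher in tissue in the average (F10, Procr and Pros1) and none lower. Among all genes 1.93% were called higher and 0.0738% lower. The list's median was 0.28, that of all genes -0.01. Pros1, which encodes the anticoagulant protein S, rose by 0.69 ± 0.10 on the log2 scale (adjusted p = 0.000695, edgeR), and Procr, the protein C receptor, by 1.499 ± 0.37. Among 15 receptors and targets of thrombin and plasmin, Mmp3 and Tgfb1 were called higher, against the same shares, and the median was 0.40. Mmp3, a matrix protease activated by plasmin, had 0 counts in the 4 CTL contralateral libraries and at most 1 in the BLZ945 ones, against 1.95 to 5.93 CPM and 1.70 to 12.2 CPM ipsilaterally.

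In sdCAMs 3 of 26 genes of the plasmin list were called higher and 7 lower in the average, against 3.91% and 11.1% of all genes, and the list's median was -0.04 against -0.16. Itgam (0.84 ± 0.19), Itgb2 (0.91 ± 0.19) and Itgav (0.65 ± 0.16), which encode integrin chains and were named after their values were seen, were higher. Of the genes called lower, Vldlr and A2m changed most, Vldlr with few or no counts in the BLZ945 ipsilateral libraries. Vldlr, a lipoprotein receptor gene, had 4.21 to 36.7 CPM in BLZ945 contralateral and at most 0.122 CPM in BLZ945 ipsilateral libraries. A2m was called lower in CTL mice and not in BLZ945 mice, where it had 8.41 to 129 against 2.68 to 15.03 CPM. Lrp8 (-3.40 ± 0.74), Serpini1, the neuroserpin gene (-2.55 ± 0.69), and Vtn, which encodes vitronectin (-2.39 ± 0.46), followed. On the coagulation list 4 of 26 were higher and 2 lower, again against 3.91% and 11.1%, with a median of -0.11. F5, the factor V gene, had 11.4 to 104 CPM in BLZ945 contralateral and 0 to 6.82 CPM in BLZ945 ipsilateral libraries (-4.53 ± 1.15). Vwf, the endothelial gene of von Willebrand factor, had 49.8 to 120 CPM in CTL contralateral and 0.13 to 5.15 CPM in CTL ipsilateral sdCAM libraries. F13a1, the transglutaminase chain that cross-links fibrin and a gene of border macrophages, was higher ipsilaterally (1.16 ± 0.29, adjusted p = 0.014), and so were Pros1 (0.82 ± 0.16) and the thrombospondin receptor gene Cd36 (1.15 ± 0.32, edgeR). Of the 15 receptors and targets 1, Ctsb, was called higher, again against 3.91% of all genes, with a median of 0.34. In the same comparison 5 of 5 endothelial, 4 of 4 astrocyte, 4 of 4 mural, 3 of 3 oligodendrocyte and 3 of 4 choroid plexus markers were called lower. F13a1 is itself among the 7 border macrophage markers, all called higher. The part of the cells sorted in these changes was not tested.

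The genes whose level was most like that of each member were named by Pearson's r of log2 CPM, over the 16 tissue libraries (14316 genes) or the 14 sdCAM libraries (13827 genes). These coefficients describe libraries that share the hemisphere difference. In tissue they were Myh9 (0.94), Nes (0.94) and Ddx21 (0.93) for Plaur, Ms4a6d (0.91), Rab7b (0.90) and Lrrc32 (0.90) for Plau, and Tnfrsf1b (0.96), Zfp36 (0.95) and Ftl1 (0.95) for Thbs1. Thbd was most like Nos3, the endothelial nitric oxide synthase gene (0.94), Ehd2 (0.91) and Vwa5a (0.90). The level genes had as nearest Pogk (0.94), Pea15a (0.89) and Qdpr (0.89) for Serpine2, Litaf (0.84), Tmbim1 (0.83) and Itpkc (0.82) for Plat, and Lrch3 (0.84), Kcne5 (0.83) and H2bc4 (0.83) for F3.

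In sdCAMs, Plat was most like Klf9 (0.97), Cdc42ep4 (0.97) and B9d1 (0.97). F3 was most like Gjb6 (0.94), Atp1b2 (0.94) and Sox9 (0.94), genes that astrocytes express. Thbs1 and Plaur had Nfil3 in common, at 0.92 for both, beside Tgm2 (0.94) and AA467197 (0.91) for Thbs1 and Gpr171 (0.95) and Map2k3 (0.90) for Plaur. For Serpine2 the nearest were Abhd6 (0.95), Sparc (0.95) and Cadm1 (0.91), for Thbd Nr1h3 (0.85), A530013C23Rik (0.82) and Junos (0.81), and for Plau Zcchc14 (0.90), Zfp609 (0.82) and Gm807 (0.80). Between members the closest pairs were Plau and Thbd in tissue (0.76) and Plaur and Thbs1 in sdCAMs (0.78), while Serpine2 and Thbs1 ran against each other in sdCAMs (-0.73).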

How the data were processed

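Raw read counts per gene were deposited by the authors as 1 table for tissue and 1 for sdCAMs. Per the submitters' processing notes, reads were handled with bcl2fastq 2.20, STAR 2.7.11a, featureCounts 2.0.8 and DESeq2 1.46.0. The genome build used for these libraries and strand settings are not given in the sources used here, so no gene coordinates are given outside the RefSeq windows. The members and gene lists were chosen with earlier results of these data known. Libraries were grouped by treatment and hemisphere, and all carry the label of a single batch.

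Counts were fitted with edgeR 4.0.16 in R 4.3.3 (TMM, quasi-likelihood, two-sided), separately for tissue (16 libraries), sdCAMs (14) and both together (30). Genes with a summed count under 8, 7 or 15 were removed. All 8 members were named in every comparison, and of the other lists the called genes, at most 5 of each with the largest change. The integrin genes Itgam, Itgb2 and Itgav in sdCAMs were named beside these. The values of 1 listed gene are not reported here. The 3 most similar genes were named for members with a mean of at least 1 CPM, with a prior count of 2. The hemispheres of a mouse pair the libraries: deviations from the group mean correlated within a mouse (median r 0.436 in tissue, 0.122 in sdCAMs) and less between mice (-0.119 and -0.0405). Alternatives were DESeq2 1.42.0, its size factors in edgeR, other filters and thresholds, the mouse as a block, left-out mice, all libraries and the exchange of A3.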

Additional observations from a re-analysis of the deposited data

Results flagged for a closer look

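In 3 groups of 4 libraries, 1 library stood apart from the others by Dixon's test at the 95% level, out of 45 groups tested, where chance alone gives about 1 in 20. Contralateral tissue of CTL mouse A3 had 0.935 CPM of Plau, against 1.85 CPM in the next library, and this is one of the A3 libraries whose hemisphere the labels and the table give differently. Contralateral sdCAMs of BLZ945 mouse D1 had 7.70 CPM of Serpinb2 (75 counts), against 0 in the other 3. Contralateral sdCAMs of CTL mouse B1 had 74.4 CPM of F3, against 218 CPM in the next.

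The log2 fold change of ipsilateral over contralateral differed between sdCAMs and tissue for 5 genes, in the test of the difference itself. It differed by -3.89 for Plat, -2.59 for Plau, -2.03 for F3, -1.956 for Plaur and -1.57 for Thbd (sdCAM minus tissue, adjusted p from 1.47e-05 to 0.0161, edgeR). The part of other cells in the sdCAM libraries was not tested.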

How the results depend on the processing

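Of 1715 recomputed log2 fold changes of 7 members, 1660 stayed on their side of the calling threshold, values near 0 changing sign among them. The cause of a change was not tested unless stated. The number of members called in CTL tissue, 0 as reported, was 1 with DESeq2, 1 without the filter on low counts, 2 with the mouse as a replicate block and 0 to 1 when a mouse was left out (1 without C2, where Plaur had an adjusted p of 0.0126, edgeR). In BLZ945 tissue the 4 calls became 0 with the A3 tissue libraries exchanged and 0 to 4 when a mouse was left out. There the exchange left the fold changes as they were, since the fit shares one estimate of the spread. In the tissue average the 4 calls became 0 with the exchange. In sdCAMs, the 1 call in CTL mice became 2 with the block and 0 to 1 when a mouse was left out. In BLZ945 mice it became 2 with the block, 3 with scaling to border macrophage markers and 0 to 1 with a mouse left out, where without D1 Thbd (log2 fold change -2.36, adjusted p = 0.0239, edgeR) took the place of Plat. The 2 calls of the sdCAM average became 4 with the marker scaling, which took Serpine2 from 0.03 to -1.19 on the log2 scale. By its construction that scaling lowers all genes where the markers rose: their median became -1.38, and 44.6% of them were called lower in the average and 21.6% in BLZ945 mice. The 2 calls became 1 to 3 with a mouse left out. In the difference between materials DESeq2 called 7 members, against 22% of all genes, adding Thbs1 (adjusted p = 0.0304) and Serpinb2. Serpinb2 had 75 counts in the contralateral sdCAM library of D1 and 12 in the ipsilateral one of B1. It had 0 in the other sdCAM libraries used. A log2 threshold of 1 removed Thbd from the tissue average, and Thbd in ipsilateral sdCAMs against tissue was lost with 4 settings beside the block, among them DESeq2 (0.62, adjusted p = 0.0706) and all 32 libraries (0.65, adjusted p = 0.11). The block changed no other call than those given, and none could be fitted between treatments, which differ between mice. Members under the floor, Serpinb2 above all, cannot be compared at this depth.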
